A study of Mus musculus with 8 samples.

Results

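The genes that license and copy DNA were read in AtT20 cells, a mouse pituitary corticotroph tumor line that makes ACTH, with and without the retinoid X receptor (RXR) agonist HX630. They are 56 genes named for their place at the origin of replication or at the replication fork, out of 19751 gene symbols that carried at least 1 probe and 15320 that were tested. The rule that lists them goes by gene name, and the list was drawn up with earlier results of these data known. It was divided here into 12 complexes or functions, from the origin recognition complex to the proteins that package new DNA.

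A single pair of groups was compared. The control group (4 samples) received no HX630 and the treated group (4 samples) received it at 10 μM, both for 48 hr. The line was unmodified, and the medium during treatment was low in serum (1% stripped FBS in DMEM). The methods give DMSO as the solvent of the agonists. Total RNA of each sample was labelled with Cy3 and hybridised to 1 array of Agilent's mouse 4x44K design, version 2, so the comparison asks which of these transcripts differ after 48 hr of the agonist.

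DNA replication begins when the origin recognition complex, Cdc6 and Cdt1 load the Mcm2-7 helicase onto origins during G1, a step called licensing. In S phase Cdc45 and the GINS complex switch the helicase on, the polymerases copy the strands with the help of the PCNA clamp and its loader, and dedicated enzymes make the nucleotides and join the lagging strand fragments. Many of these genes are transcribed in waves near the G1/S boundary under the E2F factors, so their RNA is abundant in cycling cells and scarce in resting ones. RXR itself is a nuclear receptor that pairs with other nuclear receptors on DNA.

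Of the 56 genes, 53 had a higher mean signal with HX630 and 3 a lower one (1 to 4 under the other settings tried). With the adjusted p-value under 0.01, 46 rose and 1 fell, against 24.0% and 27.2% of all genes tested. When a fold above 1.5 was required as well, which is what "called" means here, 10 genes were called higher and 0 lower, against 8.38% and 11.2% of all genes. The 10 were Cdc6, Clspn, Pole2, Rfc3, Dscc1, Uhrf1, Slbp, Pola1, Gins2 and Timeless, with folds from 1.57 to 2.72. The median log2 fold change was 0.38 over the 56 genes and -0.034 over all 15320. Most rises were below the fold threshold: 36 genes passed the adjusted p-value with folds from 1.14 to 1.48. The origin recognition complex stood apart in its values, with a median of 0.018, and Orc5 was the gene that fell. The other 50 genes all had a higher mean signal with HX630 and a median of 0.41.

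Each signal is the log2 of the background-subtracted intensity minus the 75th percentile of the same array, so a signal of 0 lies at that percentile and a difference of 1 is a 2-fold change. The test was limma's moderated test, two-sided, over 28553 probes, with Benjamini-Hochberg adjustment, and each difference is HX630 minus control ± its standard error with 4 arrays in each group. A gene stands for its brightest tested probe. No label says that the 4 samples of a group were separate cultures, so the p-values measure the spread between these arrays. Each slide carried a single group, the control samples on the first and the HX630 samples on the second, so that slide and treatment cannot be told apart. A higher share of cells in S phase and more RNA per cell cannot be told apart in RNA from whole cultures. For a single gene, the two-sided exact permutation test of 4 arrays against 4 cannot give a p below 0.0286.

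The arrays were alike in quality. The 75th percentile of intensity was 1335 to 1863 on the control arrays and 1803 to 1899 on the HX630 arrays, and 69.7% to 73.5% of probes were well above background. Correlations over the tested probes were 0.994 to 0.998 within groups and 0.978 to 0.984 between them. All 56 genes were above background on all 8 arrays, with no saturated spot. The 6 corticotroph markers, Pomc among them, were above background on all 8 arrays as well. They summed to 301 to 376 times the 75th percentile on the control arrays and 218 to 228 times on the HX630 arrays, with no overlap. The sums were of unlogged signals, so Pomc (mean log2 signal 8.03 on the control arrays) and Pcsk1 (6.16) made up most of them there. Pcsk1 (-2.06), Pomc (-0.45), Tbx19 (-0.37) and Pitx1 (-0.32) fell, and Neurod1 (0.72) and Crhr1 (1.11) rose. The markers of other pituitary cells (Gh, Prl, Lhb, Fshb and Tshb) summed to 0.131 to 0.248 times the 75th percentile on the control arrays and 0.157 to 0.179 times on the HX630 arrays, and Prl and Tshb were above background on none. Gh and Lhb were above background on all 8 arrays, and Gh was called lower (-0.79). The 6 fibroblast, endothelial and leukocyte markers with a probe summed to 0.271 to 0.335 times and 0.222 to 0.258 times, and Cdh5 was above background on none. Col3a1, Dcn, Pecam1 and Ptprc were above background on all 8 arrays. Dcn was called higher (1.04) and Pecam1 lower (-0.59), and Ptprc was lower by the adjusted p-value (-0.45). The part of these 3 lists in the results was not tested.

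Promoters were read for the genes with an entry in a table of promoters on GRCm38.p6, from 250 bases before the gene's first base to 50 after it. Of the 56 genes, 46 had 55 such promoters, and Gins1, Gins2, Gins4, Dscc1, Gmnn, Mcm4, Pole, Prim2, Rfc2 and Tipin had none. An E2F motif was searched as any of the words TTTCCCGC, TTTCGCGC, TTTGCCGC and TTTGGCGC on either strand. It was found in 18 of the 46 genes, or 39.1%, against 4.05% of the 12199 tested genes with a promoter in the table. By promoter the shares were 32.7% of 55, 3.41% of the 15300 promoters of tested genes and 2.26% of all 32851. The median share of G and C bases was 61.3%, 59.3% and 52.7% in these sets. Of the called genes with a promoter, 6 of 8 held the motif, namely Cdc6, Clspn, Pole2, Rfc3, Pola1 and Uhrf1, and Slbp and Timeless did not.

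The promoters of the 4 genes with the largest rises, of Mcm6, which held 3 matches, and of Orc5, which fell and held none, are shown from 170 bases before the first base to 30 after it, in the direction of the gene, with each E2F match in capitals. They are Cdc6 (chr11:98907981-98908180 on the plus strand), Clspn (chr4:126556810-126557009 on the plus strand), Pole2 (chr12:69228161-69228360 on the minus strand), Rfc3 (chr5:151651179-151651378 on the minus strand), Mcm6 (chr1:128359676-128359875 on the minus strand) and Orc5 (chr5:22550309-22550508 on the minus strand).
Cdc6: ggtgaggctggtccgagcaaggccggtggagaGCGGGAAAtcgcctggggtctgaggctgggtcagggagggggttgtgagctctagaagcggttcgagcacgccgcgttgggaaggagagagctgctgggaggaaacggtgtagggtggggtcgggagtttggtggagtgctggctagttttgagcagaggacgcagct
Clspn: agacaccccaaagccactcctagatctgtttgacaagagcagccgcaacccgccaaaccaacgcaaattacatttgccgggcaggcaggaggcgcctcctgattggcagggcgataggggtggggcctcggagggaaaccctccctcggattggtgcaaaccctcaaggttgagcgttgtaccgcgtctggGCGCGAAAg
Pole2: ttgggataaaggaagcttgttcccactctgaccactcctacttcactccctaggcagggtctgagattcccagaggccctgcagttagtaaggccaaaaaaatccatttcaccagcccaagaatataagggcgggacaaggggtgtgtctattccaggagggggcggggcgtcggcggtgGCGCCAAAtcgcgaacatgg
Rfc3: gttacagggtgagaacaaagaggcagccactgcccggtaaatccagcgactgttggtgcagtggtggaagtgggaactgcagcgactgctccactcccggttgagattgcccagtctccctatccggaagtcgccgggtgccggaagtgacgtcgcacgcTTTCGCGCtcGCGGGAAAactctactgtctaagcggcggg
Mcm6: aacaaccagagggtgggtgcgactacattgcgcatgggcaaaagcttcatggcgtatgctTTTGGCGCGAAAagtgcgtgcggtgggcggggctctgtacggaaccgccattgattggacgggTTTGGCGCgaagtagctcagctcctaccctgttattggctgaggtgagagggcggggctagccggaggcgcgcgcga
Orc5: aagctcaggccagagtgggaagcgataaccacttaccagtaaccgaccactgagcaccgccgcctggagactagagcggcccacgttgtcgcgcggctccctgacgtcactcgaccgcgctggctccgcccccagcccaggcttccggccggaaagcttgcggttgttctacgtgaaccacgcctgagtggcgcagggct
In Mcm6 a pair of the matches overlap and read as 1 run of capitals. The first base of the gene is counted as 1, and the match began at -138 in Cdc6, at 22 in Clspn, at 11 in Pole2, at -10 and 1 in Rfc3, and at -110, -106 and -47 in Mcm6.

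The median change was the same with and without the motif. The 18 genes with it had a median log2 fold change of 0.38, from -0.0047 (Orc3) to 1.44 (Cdc6). The 28 genes with a promoter but no match had a median of 0.38 too, from -0.54 (Orc5) to 0.72 (Slbp). The 10 genes with no promoter in the table had a median of 0.39. The called genes numbered 6, 2 and 2 in these groups. The CCAAT box (CCAAT, either strand), a common element of cell cycle promoters, was in 58.7% of the 46 genes and 42.9% of the tested genes. The CHR element (TTTGAA, either strand), known from genes that peak in G2 and mitosis, was in 10.9% and 15.3%. These are matches of letters in short windows, and no binding was measured.

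**Figure D1:**
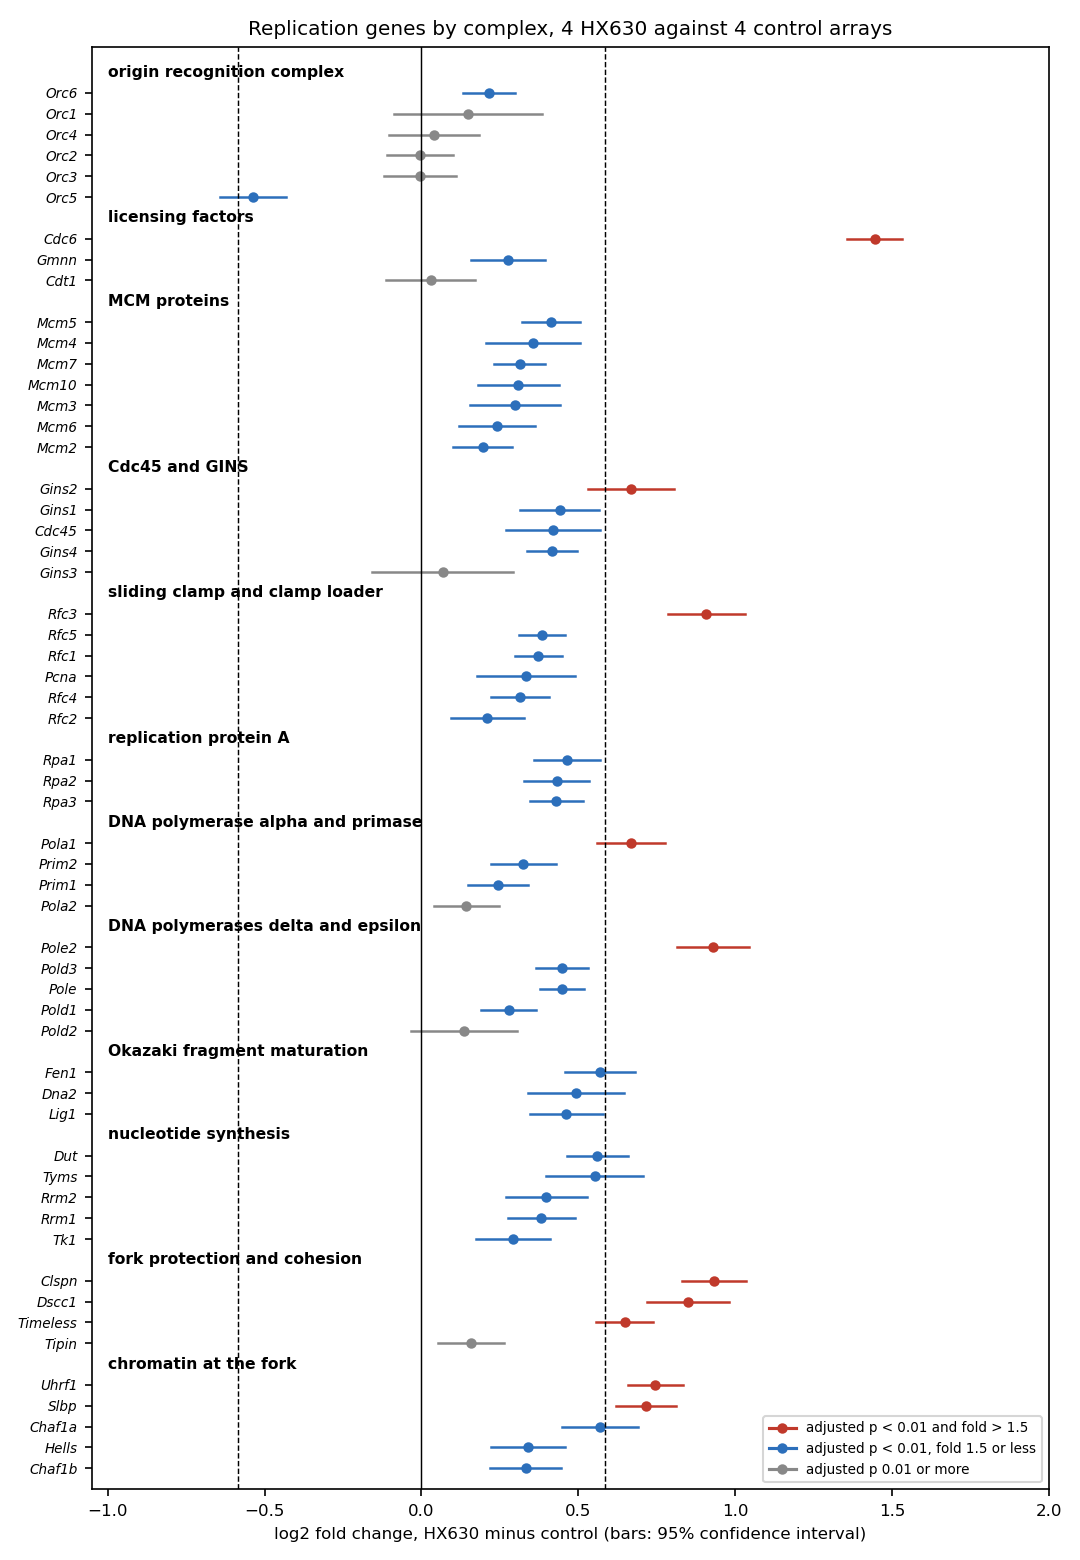
Fitted log2 fold change (HX630 minus control, x axis) of each of the 56 replication genes, grouped by complex, with bars for the 95% confidence interval from limma and dashed lines at a fold of 1.5. The 10 called genes are red, the other genes with an adjusted p under 0.01 are blue, and the 9 remaining genes are grey. Orc5 is the single gene that lies well to the left of 0.

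The origin recognition complex marks the sites where replication starts and is held at similar levels through much of the cell cycle. Its 6 genes were the least changed of the 12 groups by median. Orc6 rose, Orc5 fell, and Orc1, Orc2, Orc3 and Orc4 did not pass the adjusted p-value. The Orc5 signal was -0.79, -0.77, -0.90 and -0.82 on the control arrays and -1.28, -1.37, -1.36 and -1.42 on the HX630 arrays. All HX630 arrays lay below all control arrays, and the difference was -0.54 ± 0.045 (adjusted p = 2.85e-05, limma), or 1.45-fold lower, just short of a fold of 1.5. The Orc2 signal was 0.043, 0.17, 0.023 and 0.015 on the control arrays and 0.0098, 0.075, 0.052 and 0.10 on the HX630 arrays. The groups overlapped fully, and the difference was -0.0035 ± 0.045 (95% confidence interval -0.11 to 0.10, adjusted p = 0.952). Orc3 (-0.0047 ± 0.049) and Orc4 (0.039 ± 0.062) had intervals that held 0 as well, and the signs of Orc2 and Orc3 changed with the scaling of the arrays. Orc1, the subunit whose level follows E2F activity in many cells, was at 0.15 ± 0.10 (adjusted p = 0.244), with a wide interval of -0.088 to 0.38. Orc6, the smallest subunit, rose by 0.22 ± 0.035 (adjusted p = 0.00118). The fall of Orc5 was present under each of the 23 alternatives in which its change was refitted, from -0.57 to -0.32.

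Cdc6, Cdt1 and geminin (Gmnn) act on the origin next. Cdc6 is the ATPase that joins the origin complex to load the helicase, Cdt1 brings the helicase in, and geminin holds Cdt1 back once S phase has begun. The Cdc6 signal was -2.77, -2.70, -2.82 and -2.79 on the control arrays and -1.29, -1.34, -1.33 and -1.35 on the HX630 arrays. This was the largest change among the 56 genes, and the arrays of each group lay close together. The difference was 1.44 ± 0.037, or 2.72-fold (adjusted p = 1.33e-07). A second Cdc6 probe gave 1.01 ± 0.17 (adjusted p = 0.00147), a smaller rise. That probe was the brighter of the pair on the control arrays (mean -2.64 against -2.77) and the dimmer with HX630 (-1.63 against -1.33), so that the choice of the brightest probe over all arrays rested on the HX630 arrays and took the larger change. The Cdt1 signal was 4.27, 4.29, 4.10 and 4.08 on the control arrays and 4.29, 4.17, 4.18 and 4.20 on the HX630 arrays. Cdt1 overlapped between the groups and its difference was 0.030 ± 0.061 (95% confidence interval -0.11 to 0.17, adjusted p = 0.699). The confidence intervals of Cdc6 and Cdt1 do not overlap. Geminin rose by 0.28 ± 0.050 (adjusted p = 0.00203), a fold of 1.21.

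The Mcm2-7 proteins form the ring of the replicative helicase, and Mcm10 helps to open it. All 7 genes rose and none was called, with differences in the narrow range of 0.19 to 0.41. The Mcm5 signal was 3.48, 3.54, 3.43 and 3.47 on the control arrays and 3.84, 3.88, 3.91 and 3.95 on the HX630 arrays. The Mcm2 signal was 3.13, 3.17, 3.04 and 3.04 on the control arrays and 3.29, 3.27, 3.30 and 3.31 on the HX630 arrays. In both genes every HX630 array was above every control array. The differences were 0.41 ± 0.040 for Mcm5 (adjusted p = 5.91e-05) and 0.19 ± 0.040 for Mcm2 (adjusted p = 0.00373), folds of 1.33 and 1.14. Mcm3, Mcm4, Mcm6, Mcm7 and Mcm10 lay between them, at 0.30, 0.36, 0.24, 0.31 and 0.31. The confidence interval of Mcm2 ended at 0.29 and that of Mcm5 began at 0.32, and the intervals of the other 5 genes overlapped both. Mcm6 held 3 E2F matches in its promoter, and its difference of 0.24 was the second smallest of the 7.

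Cdc45 and the 4 GINS subunits bind the loaded ring and turn it into the active helicase. Of the 5 genes, 4 rose, and Gins2 was called. The Gins2 signal was 0.30, 0.35, 0.19 and 0.15 on the control arrays and 0.99, 0.94, 0.92 and 0.81 on the HX630 arrays. The lowest HX630 array was well above the highest control array, and the difference was 0.67 ± 0.059, or 1.59-fold (adjusted p = 3.83e-05). Gins1 (0.44 ± 0.054), Gins4 (0.42 ± 0.035) and Cdc45 (0.42 ± 0.064) had similar rises. The Gins3 signal was 1.95, 2.28, 2.27 and 2.34 on the control arrays and 2.16, 2.20, 2.37 and 2.38 on the HX630 arrays. Control 1 was far below the other control arrays, the groups overlapped, and the difference was 0.068 ± 0.10 (adjusted p = 0.576). Without that array the Gins3 difference was -0.019. The difference between Gins3 and its partners was not tested.

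PCNA is the sliding clamp that keeps the polymerases on DNA, and the Rfc proteins load it. All 6 genes rose, and Rfc3 was called. The Rfc3 signal was -0.14, -0.042, -0.037 and -0.15 on the control arrays and 0.77, 0.76, 0.94 and 0.79 on the HX630 arrays. The Rfc2 signal was 3.06, 3.25, 3.16 and 3.15 on the control arrays and 3.29, 3.36, 3.42 and 3.38 on the HX630 arrays. HX630 arrays lay above control arrays in both, by a wide gap in Rfc3 and a narrow one in Rfc2. Rfc3 differed by 0.91 ± 0.053, or 1.88-fold (adjusted p = 3.87e-06), and Rfc2 by 0.21 ± 0.050, or 1.16-fold (adjusted p = 0.00796). Pcna itself was at 0.33 ± 0.067. Rfc1, the large subunit, Rfc4 and Rfc5 were at 0.37, 0.31 and 0.38. The changes of the 5 loader subunits spanned 0.21 to 0.91 on the log2 scale, and the 95% confidence interval of Rfc3 overlapped none of the others.

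Replication protein A coats the single strands at the fork. Its 3 subunits changed by nearly the same amount. The Rpa1 signal was 4.09, 4.09, 3.95 and 3.96 on the control arrays and 4.48, 4.52, 4.49 and 4.45 on the HX630 arrays. The Rpa3 signal was 3.44, 3.51, 3.45 and 3.50 on the control arrays and 3.90, 3.90, 3.96 and 3.86 on the HX630 arrays. No array of one group fell within the other. The differences were 0.46 ± 0.045 for Rpa1, 0.43 ± 0.045 for Rpa2 and 0.43 ± 0.036 for Rpa3, folds of 1.38, 1.35 and 1.35, and all 3 passed the adjusted p-value.

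DNA polymerase alpha, with its primase, lays down the RNA and DNA primers. Pola1, the catalytic subunit, was called, Prim1 and Prim2 rose, and Pola2, the accessory subunit, did not pass the adjusted p-value. The Pola1 signal was 1.52, 1.39, 1.58 and 1.52 on the control arrays and 2.17, 2.17, 2.20 and 2.14 on the HX630 arrays. The Pola2 signal was -1.74, -1.80, -1.74 and -1.72 on the control arrays and -1.55, -1.57, -1.71 and -1.59 on the HX630 arrays. The lowest HX630 array of Pola2 was above the highest control array, but by a small step against the spread. Pola1 differed by 0.67 ± 0.047, or 1.59-fold (adjusted p = 1.02e-05), and Pola2 by 0.14 ± 0.044 (95% confidence interval 0.040 to 0.25, adjusted p = 0.0243). The primase subunits differed by 0.24 ± 0.041 (Prim1) and 0.32 ± 0.044 (Prim2).

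DNA polymerases delta and epsilon make the bulk of the lagging and leading strands. Of 5 subunit genes, 4 rose and Pole2 was called. The Pole2 signal was -1.07, -1.10, -1.15 and -1.22 on the control arrays and -0.15, -0.17, -0.22 and -0.30 on the HX630 arrays. Its HX630 arrays were all far above the control arrays, with a difference of 0.93 ± 0.050, or 1.90-fold (adjusted p = 2.47e-06). The catalytic subunit Pole rose by 0.45 ± 0.030, less than its partner, and the intervals of the pair do not overlap. Pold3 and Pold1, the catalytic subunit of delta, rose by 0.45 and 0.28. The Pold2 signal was 0.87, 1.10, 1.05 and 0.99 on the control arrays and 0.99, 1.10, 1.23 and 1.24 on the HX630 arrays. Pold2 overlapped between the groups, with a difference of 0.14 ± 0.073 (95% confidence interval -0.033 to 0.30, adjusted p = 0.145).

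Fen1 trims the flap of each Okazaki fragment, Dna2 cuts longer flaps and Lig1 seals the nick. All 3 rose by similar amounts. The Fen1 signal was 2.53, 2.55, 2.37 and 2.44 on the control arrays and 3.07, 3.05, 3.02 and 3.04 on the HX630 arrays. The Lig1 signal was 3.65, 3.75, 3.56 and 3.56 on the control arrays and 4.08, 4.10, 4.12 and 4.06 on the HX630 arrays. In each gene all HX630 arrays were higher. The differences were 0.57 ± 0.048 for Fen1, 0.49 ± 0.066 for Dna2 and 0.46 ± 0.050 for Lig1, and Fen1, at 1.48-fold (adjusted p = 2.80e-05), came closest to a fold of 1.5 without passing it.

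The enzymes of nucleotide synthesis supply the fork. Rrm1 and Rrm2 form ribonucleotide reductase, Tyms makes thymidylate, Dut provides its precursor while removing dUTP, and Tk1 salvages thymidine. All 5 rose and none was called. The Dut signal was 1.90, 2.02, 1.87 and 1.89 on the control arrays and 2.47, 2.46, 2.52 and 2.47 on the HX630 arrays. The Tk1 signal was 2.43, 2.54, 2.33 and 2.37 on the control arrays and 2.73, 2.70, 2.74 and 2.67 on the HX630 arrays. The groups did not overlap in either gene. Dut differed by 0.56 ± 0.042 (1.47-fold, adjusted p = 1.51e-05) and Tk1 by 0.29 ± 0.051 (1.22-fold, adjusted p = 0.00168). Tyms, at 0.55 ± 0.066, was near Dut, and the reductase subunits moved by similar amounts, 0.38 ± 0.046 for Rrm1 and 0.40 ± 0.056 for Rrm2.

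Proteins that travel with the fork and guard it had the highest median of the 12 groups, 0.75. Claspin (Clspn) carries the checkpoint signal from a stalled fork, Timeless and Tipin form a pair that steadies it, and Dscc1 belongs to a variant clamp loader that acts in sister chromatid cohesion. The Clspn signal was -2.80, -2.70, -2.76 and -2.71 on the control arrays and -1.89, -1.83, -1.74 and -1.78 on the HX630 arrays. The Dscc1 signal was -0.78, -0.76, -0.93 and -0.91 on the control arrays and 0.064, 0.040, -0.0022 and -0.090 on the HX630 arrays. The Timeless signal was 2.00, 2.00, 1.92 and 1.88 on the control arrays and 2.60, 2.61, 2.62 and 2.56 on the HX630 arrays. In all 3 genes the HX630 arrays were well above the control arrays, by several times the spread within a group. Clspn differed by 0.93 ± 0.044 (1.91-fold, adjusted p = 1.33e-06), Dscc1 by 0.85 ± 0.056 (1.80-fold, adjusted p = 7.49e-06) and Timeless by 0.65 ± 0.039 (1.57-fold, adjusted p = 4.86e-06). The Tipin signal was 3.05, 2.94, 2.89 and 2.93 on the control arrays and 3.13, 3.15, 3.11 and 3.05 on the HX630 arrays. Tipin, the partner of Timeless, overlapped between the groups and differed by 0.16 ± 0.045 (95% confidence interval 0.051 to 0.26, adjusted p = 0.0182), an interval that does not reach that of Timeless.

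Behind the fork the DNA is packaged again and its methylation copied. Slbp binds the stem-loop of replication-dependent histone mRNAs, Uhrf1 brings the maintenance methyltransferase to hemimethylated DNA, the chromatin assembly factor subunits Chaf1a and Chaf1b deposit histones, and Hells is a remodelling helicase. All 5 rose. The Uhrf1 signal was 2.62, 2.56, 2.49 and 2.56 on the control arrays and 3.29, 3.33, 3.29 and 3.31 on the HX630 arrays. The Slbp signal was 0.52, 0.52, 0.47 and 0.51 on the control arrays and 1.31, 1.22, 1.15 and 1.21 on the HX630 arrays. Both were called, with no overlap of the groups. Uhrf1 differed by 0.75 ± 0.038 (1.68-fold, adjusted p = 1.87e-06) and Slbp by 0.72 ± 0.041 (1.64-fold, adjusted p = 3.61e-06). A second, dimmer Slbp probe rose by 0.57 ± 0.053 (adjusted p = 4.99e-05) and would not have been called. The Chaf1b signal was 4.83, 4.83, 4.71 and 4.69 on the control arrays and 5.16, 5.09, 5.10 and 5.04 on the HX630 arrays. Chaf1b differed by 0.33 ± 0.049 (adjusted p = 0.000658), Hells by 0.34 ± 0.051, and Chaf1a by 0.57 ± 0.052, a fold of 1.48.

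**Figure D2:**
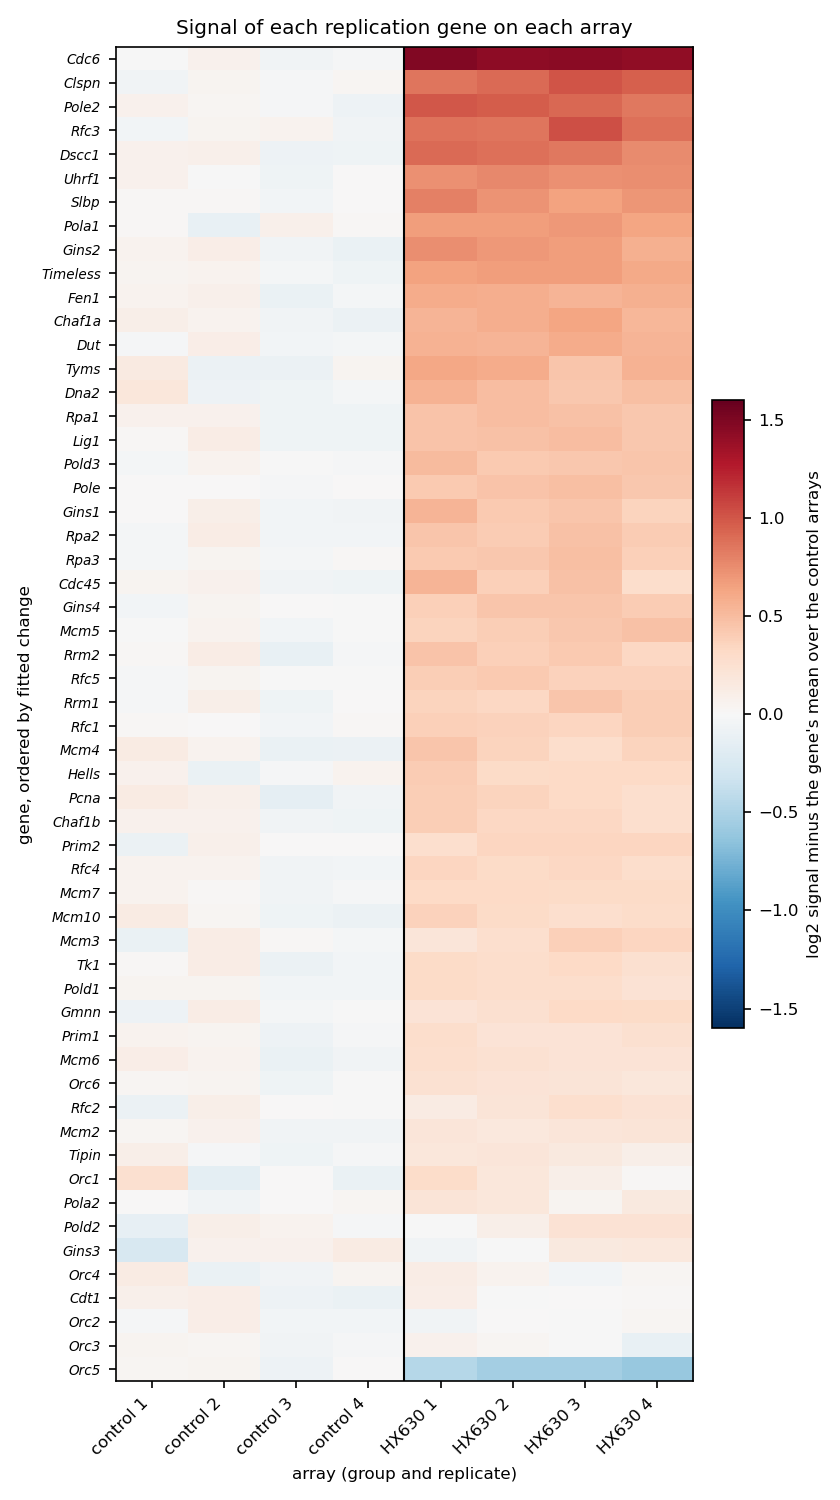
Signal of each of the 56 replication genes (rows, ordered by fitted change) on each of the 8 arrays (columns), as log2 signal minus the gene's mean over the 4 control arrays, red above and blue below. The 4 HX630 columns are red for nearly all rows and alike within a row, from Cdc6 at the top to the single blue row of Orc5 at the bottom.

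Over the arrays, 47 of the 56 genes had all 4 HX630 arrays above all 4 control arrays, against 28.6% of all genes tested, and 1, Orc5, had all below, against 32.8%. The remaining 8 overlapped, namely Orc1, Orc2, Orc3, Orc4, Cdt1, Gins3, Pold2 and Tipin. The median signal of the 56 genes was 1.98, 2.06, 1.97 and 1.97 on the control arrays and 2.32, 2.34, 2.37 and 2.37 on the HX630 arrays. Each HX630 array was thus above each control array in the median as well. The spread within a group was small, with a median standard deviation of 0.059 over the genes and groups. The 1 gene that was lower by the adjusted p-value was also the only one lower at an unadjusted p under 0.05. The methods' t-test called 0 of the 56 lower, but its fold limit alone kept Orc5, at 1.45-fold, from being called. Of the 9 genes with more than 1 tested probe, the probes of 7 had the same sign. The second probe gave 0.068 ± 0.065 for Orc3 (adjusted p = 0.400) and -0.057 ± 0.028 for Orc4 (adjusted p = 0.115), opposite in sign to the brighter one, and no probe of either gene passed the test. Of the 10 called genes Cdc6, Slbp, Timeless and Uhrf1 had a second tested probe, and that of Slbp, at 0.57, lay under the fold threshold.

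Genes outside the list, chosen by function, were read in the same way. The accessory replication genes, such as the origin-firing kinase Cdc7 with Dbf4, further polymerase subunits and histone chaperones, numbered 33, of which 31 were tested. By the adjusted p-value 19 of them rose and 3 fell, against 24.0% and 27.2% of all genes tested, and the median was 0.30. The 3 that fell were Rnaseh2c (-0.31), Pole3 (-0.26) and Recql4 (-0.15). Among 13 tested G1/S regulators 10 rose and 0 fell by limma's adjusted p-value (0 also at an unadjusted p under 0.05), with a median of 0.33. E2f7, an E2F that represses, was called at 0.90 ± 0.046 (adjusted p = 2.05e-06), and cyclin E1 (Ccne1), the partner of Cdk2 at the G1/S boundary, at 0.75 ± 0.055 (adjusted p = 1.28e-05). E2f1 and E2f2, which activate, rose by 0.56 and 0.56. Among 19 tested mitotic genes 17 rose by the adjusted p-value, with a median of 0.31, and Nusap1, a spindle protein, was called at 0.71 ± 0.039 (adjusted p = 3.01e-06). Called higher were 3.23% of the accessory genes, 15.4% of the G1/S regulators and 5.26% of the mitotic genes, against 8.38% of all genes tested. The medians of these 3 lists lie close to that of the 56 genes, and the differences between lists were not tested.

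**Figure D3:**
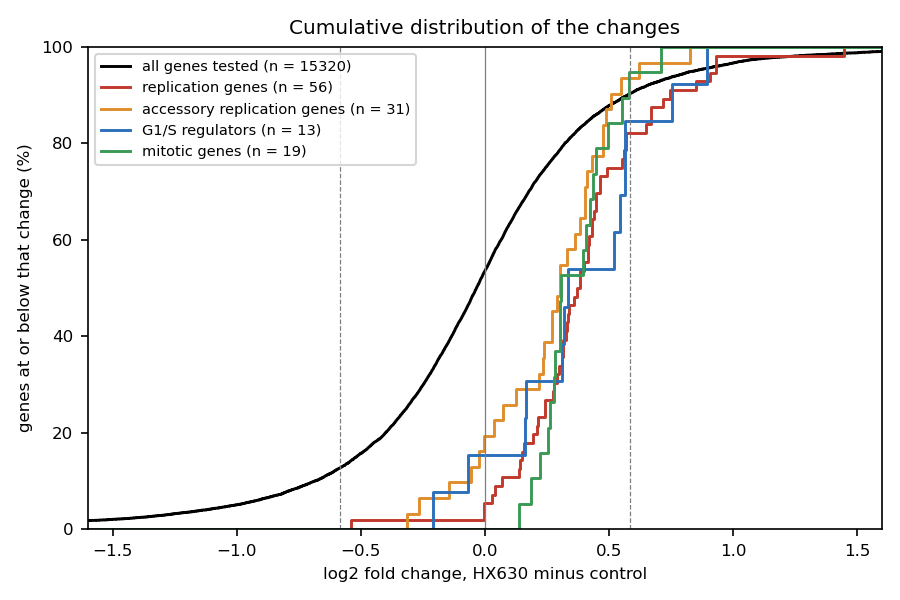
Cumulative share of genes (y axis, %) at or below each log2 fold change (HX630 minus control, x axis, drawn from -1.6 to 1.6) for all 15320 genes tested, the 56 replication genes, and the tested accessory replication genes, G1/S regulators and mitotic genes, with dashed lines at a fold of 1.5. The curves of the 4 cell cycle lists lie to the right of the curve of all genes in the middle of the range, with medians of 0.30 to 0.38 against -0.034.

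The size of the shift, and so the number of genes over the fold threshold, depended on how the arrays were brought to one scale. Scaling to 8 spike-in control probes moved the median of all genes from -0.034 to 0.19 and that of the 56 genes from 0.38 to 0.60, and 29 genes were then called higher. The share of higher calls among all probe calls moved from 40.1% to 68.9%. Scaling by each array's median gave 14 called genes and 51.6%, and quantile normalization 14 and 49.8%. Relative to the median of all genes, the 56 genes were 0.41 higher in the main values. A scaling by a single constant per array moves all genes alike, so it cannot change this gap. The gap was 0.42 under quantile normalization and 0.47 after normexp background correction, which could change it. The 10 called genes were called under every one of these scalings, and Orc5 was lower under every one. The single constants tried left the changes nearly equal or raised them, so they could hardly remove a higher call.

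**Figure D4:**
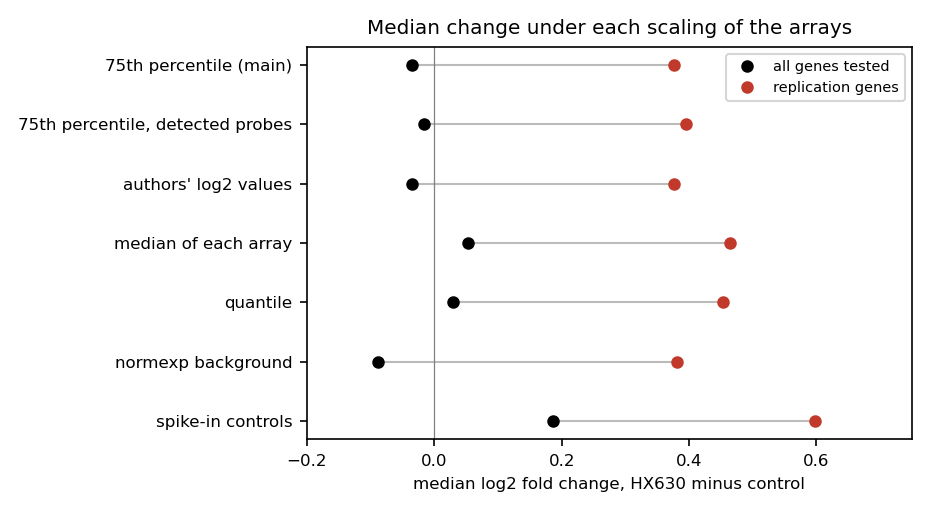
Median log2 fold change (HX630 minus control, x axis) of all 15320 genes tested (black) and of the 56 replication genes (red) under 7 ways of scaling or background-correcting the arrays (rows). The gap between the points is 0.41 to 0.47. A single constant per array cannot change it, so only the rows of quantile normalization and normexp could differ from the main one.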

How the data were processed

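The 56 genes and the other lists were chosen with earlier results of these data known. Each deposited file holds 1 array, made by the authors with Agilent Feature Extraction 10.7.3.1, as a background-subtracted, spatially detrended intensity per spot. The deposited value table holds log2 values of the same intensities, shifted by a constant per array, and served as an alternative. Of 44397 spots, 1377 control spots and outlier spots were left out, and spots of a probe were averaged (39429 probes). The log2 intensity minus the array's 75th percentile was tested for the 28553 probes well above background on at least 4 of 8 arrays, with limma 3.58.1 in R 4.3.3 (lmFit and eBayes, no block) and Benjamini-Hochberg adjustment. The script was tested on simulated data. Of the probes, 26055 were named through their RefSeq accession (table of GRCm38.p6). The methods used a t-test with a p under 0.01 and a fold above 1.5, and the same limits were set here on the adjusted p. Values on every array are given for each called gene and for the most and least changed gene of each complex, and for other lists the called genes are named, except 1 accessory gene that is not reported here. E2f1 and E2f2, Orc1 and the accessory genes that fell were named after their values were seen. The number of arrays limits the precision. Alternatives covered scaling, background correction, filters, thresholds, test, probe choice, the replicate block and leaving out each array. Replicate numbers were not used to pair samples.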

Additional observations from a re-analysis of the deposited data

Results flagged for a closer look

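In each gene and group of 4 arrays, the array farthest from the others was looked for by its gap to the nearest one as a share of the group's range, and a share above Dixon's 95% critical value is given here. Of 112 such groups 6 passed, where chance gives about 5.6. In Gins3 the share was 0.837, for control 1 at 1.95 against a mean of 2.30 on the other control arrays, and the log2 fold change of 0.068 became -0.019 without it. In Rpa2 it was 0.902, for control 2 at 0.47 against 0.32. In Prim2 it was 0.852, for HX630 1 at 0.74 against 0.82. In Dna2 it was 0.833, for control 1 at 0.00019 against -0.25. In Dut it was 0.855, for HX630 3 at 2.52 against 2.47. In Hells it was 0.833, for HX630 1 at -0.40 against -0.49. Without these arrays the log2 fold changes were 0.47 for Rpa2, 0.34 for Prim2, 0.55 for Dna2, 0.55 for Dut and 0.32 for Hells.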

How the results depend on the processing

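The 10 genes called higher stayed called, in the same direction, under all 23 alternatives in which single genes were refitted, and 0 replication genes were called lower except with no fold threshold (1, Orc5). Leaving out each array in turn gave 10 to 13 replication genes called higher, a median of 0.36 to 0.39, 0 to 2 accessory genes called higher, and 1944 to 2568 probes called higher and 2880 to 3370 lower. Scaling to the spike-in probes gave 29 replication genes and 11 accessory genes called higher, a median of 0.60, and 4180 probes higher and 1889 lower. The median was 0.46 with each array's median as the scale and 0.45 with quantile normalization, and the former called 3 accessory genes higher. Normexp called 1355 probes and 2 accessory genes higher. No fold threshold gave 46 replication and 19 accessory genes, 5763 probes higher and 7246 lower. A fold over 2 gave 1 replication gene (Cdc6) and 0 accessory genes (19 pass the adjusted p-value), 755 probes higher and 1277 lower. Apart from the 2 changes of the fold threshold, the cause of these moves was not tested.

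Differences near 0 changed sign. Orc2 was 0.084 with the median, 0.015 with the percentile over detected probes, 0.22 with spike-ins, 0.089 with normexp, 0.026 with array weights, and -0.020 to 0.032 without single arrays. Orc3 was 0.083, 0.014, 0.22, 0.084 and 0.013 in the same order, 0.051 with quantile normalization, 0.032 as the mean of its probes, and -0.028 to 0.033 without single arrays. With spike-ins Orc3 passed the adjusted p-value as higher (adjusted p = 0.00269, limma) and Orc2 did not (0.0117). Orc4 was -0.025 with normexp and -0.0093 as the mean of its probes. Without single arrays Cdt1 ran from -0.0045 to 0.065 and Gins3 from -0.019 to 0.11. With the replicate number as a block, 10 replication genes were called higher and 0 lower, the median stayed 0.38, 2 accessory genes were called higher, and 2210 probes were called higher and 3346 lower. The deviations of same-numbered arrays correlated at 0.52, -0.0096, 0.24 and 0.38, and 2 of 4 controls correlated best with their own number. All 56 genes were above background on all 8 arrays, so signal did not limit which of them could be tested.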
